A study of Danio rerio with 6 samples.

Results

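The genes described here are 9 zebrafish Hippo pathway genes, namely the kinase gene stk3, the Mob adaptor genes mob1a, mob1ba and mob1bb, the Merlin genes nf2a and nf2b, and the Tead transcription factor genes tead1a, tead1b and tead3b. They were taken by their Ensembl symbol from a table of 23000 genes, and all 9 were present once. They are core Hippo and Tead genes for which the paper draws no expression plot. The RNA came from atrial cardiomyocytes (CMs) of wild-type zebrafish at 48 and 72 hours post fertilization (hpf), and each stage had 3 of the 6 libraries. All hearts carried a reporter for atrial CMs (myh6:mTagBFP2) and one for ventricular CMs (myh7:mCherry-NTR). They also carried 7XTCF-Sia:eGFP, a reporter of Wnt/β-catenin activity. Cells with high mTagBFP2, low or no mCherry and no eGFP were sorted from many dissected hearts per stage, so each library is a pool of animals. Replicates 1 and 2 of each stage were sorted on 2 instruments (BD FACSAria III and BigFoot) and replicate 3 on the BigFoot alone. The paper reports that these cells were low in number and were collected over several sorting sessions. It also reports that quality control of the RNA was skipped because there was little RNA.

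The Hippo pathway is a kinase cascade that restrains tissue growth. Stk3, the fish counterpart of mammalian Mst2, acts with the scaffold Sav1 to activate the kinases Lats1 and Lats2, and the Mob1 proteins are the adaptors that Lats kinases need for full activity. Active Lats kinases phosphorylate Yap1 and its paralog Taz (the product of wwtr1), which keeps them out of the nucleus. Merlin, encoded by the nf2 genes, is a membrane-associated protein with a FERM domain that brings Lats kinases to the cell cortex. Tead proteins bind DNA and are the main partners through which nuclear Yap and Taz act on transcription. In the study, an inhibitor of the contact between Yap and Tead was applied to larvae, and the comparison of the 2 stages asks how these genes were expressed before atrial CMs elongate.

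Library totals lay between 3577234 and 5629941 counts, and replicate 3 had the lowest total of its stage at both stages. Levels are given as CPM (counts scaled to a common library size) after TMM, a method that corrects the library totals for differences in composition. A count of 3 in a library, taken as the lowest level that can be read, equals 0.533 to 0.839 CPM. The reads have no molecular identifiers, so intervals on counts cover counting error alone. Exon lengths were not used here, so levels are compared between libraries for 1 gene and not between genes. The 8 genes of the atrial list summed to 3140 to 4590 CPM. Of these, myh6 had 6919 to 7877 counts and tbx5a 932 to 1292 in the 6 libraries. The same list holds nr2f2, which was uneven. It ranged from 0 counts (replicate 3, 72 hpf) to 132 (replicate 2, 48 hpf). In contrast, cmlc1 of that list stayed at 1163 to 1207 counts in the 6 libraries. The atrial sum in CPM was highest in replicate 3 of each stage, where the library total was lowest. Duplicate reads were removed from the deposited counts, which can limit counts of abundant genes. The part of this step in the marker sums was not tested. The 6 ventricular markers in the table summed to 805 to 1940 CPM. Of these, myh7 had 2359 to 5228 counts, nkx2.5 had 988 to 1177, and irx4a had 0 counts in every library. Not every listed gene is particular to 1 chamber. The paper labels CMs of both chambers with the promoter of myl7, which is in the atrial list. It also reports a low signal of the myh7 reporter in the atrium, and myh7 is in the ventricular list. The sums are thus no measure of sort purity. Leukocyte markers, which the sort should remove, were present and uneven, and their 10 genes summed to 359 to 789 CPM at 48 hpf and to 3.08 to 118 CPM at 72 hpf. Erythrocyte markers (7 genes) summed to 259 CPM in replicate 3 at 48 hpf and to 90.3 CPM in replicate 2 at 72 hpf, against 2.2 to 10.5 CPM in the other libraries. In bulk RNA, fewer cells of a type and less RNA per cell cannot be told apart. The labels name separate samples per stage, and p-values measure the spread between these samples.

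All 9 genes passed the filter on low counts, and 8 of them had more than 3 counts in all 6 libraries. The exception was tead1a, with 2 counts in replicate 3 at 48 hpf and 1 count in replicate 1 at 72 hpf. None of the 9 genes was called as different between the stages by edgeR (quasi-likelihood test, adjusted p-values from 0.501 to 0.995 over all 16100 genes tested), nor by DESeq2. These counts of 0 stand against a background in which edgeR called 0.00621% of all genes tested. DESeq2 called 4.25% of the 14954 genes to which it gave an adjusted p. At an unadjusted p-value under 0.05 there was 1 of the 9, mob1a, or 11.1% of the genes against 8.74% of all genes tested. The estimate was below 0, that is lower at 72 hpf, for 6 of the 9 and for 51.5% of all genes tested. The median log2 fold change was -0.20 over the 9 genes and -0.02 over all genes tested.

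**Figure D1:**
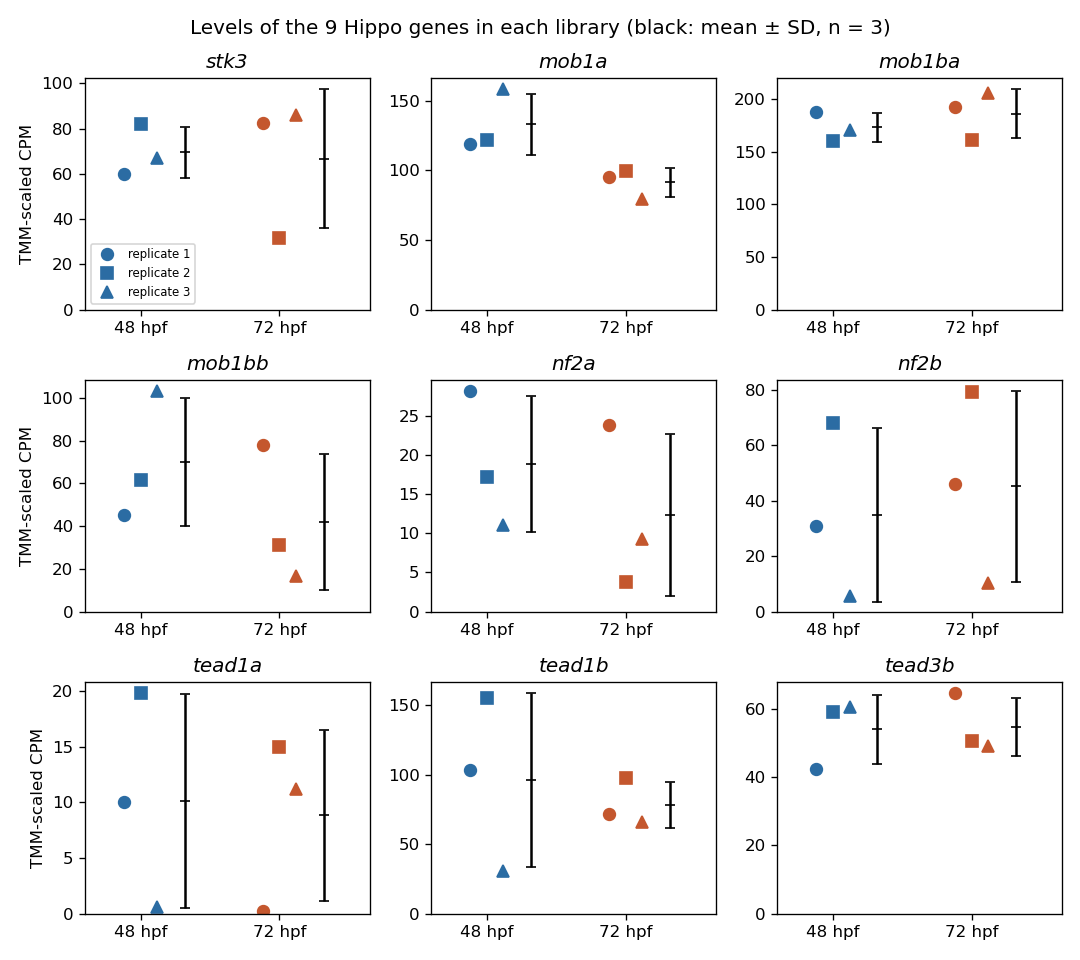
TMM-scaled CPM (vertical axis, from 0) of each of the 9 genes in the 3 libraries at 48 hpf (blue) and the 3 at 72 hpf (orange), with the symbol giving the replicate and the black bar the mean ± SD (n = 3). The stages are apart only for mob1a, where the lowest 48 hpf library is at 119 CPM and the highest 72 hpf library at 99.5 CPM.

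Among the Mob adaptor genes, mob1a (ENSDARG00000102320, chromosome 5 of danRer11 from 69708528 to 69716501, minus strand) was the gene with the clearest separation of the stages. Replicates 1, 2 and 3 had 119, 122 and 158 CPM at 48 hpf, and 94.9, 99.5 and 79.4 CPM at 72 hpf. Every 48 hpf library was thus above every 72 hpf library, with means of 133 ± 21.8 (SD, n = 3) and 91.3 ± 10.5 CPM (SD, n = 3). The stages did not overlap in 1 of the 9 genes and in 16.6% of all genes tested. The log2 fold change was -0.54 with a standard error of 0.19 and a 95% interval from -0.98 to -0.10 in edgeR, where the unadjusted p was 0.023 and the adjusted p was 0.501. DESeq2 gave the same estimate with an adjusted p of 0.102, so the difference passed the threshold of neither tool. With each library left out in turn the estimate stayed between -0.62 and -0.40. Its unadjusted p in edgeR was 0.075 without replicate 3 at 48 hpf and 0.0693 without replicate 3 at 72 hpf. With replicates 1 and 2 of each stage only, the estimate was -0.32 (edgeR, unadjusted p = 0.138). The highest mob1a level was in replicate 3 at 48 hpf, which also held the most leukocyte marker RNA (789 CPM), and all 10 leukocyte markers were detected above 3 counts in some 48 hpf library, whereas 3 of them were not in any 72 hpf library. The ventricular markers summed to 1190 to 1940 CPM at 48 hpf and 805 to 1110 CPM at 72 hpf. For the 5 atrioventricular canal markers the sums were 1060 to 1230 and 707 to 884 CPM. Both sums were thus lower in every 72 hpf library. Single genes of these lists did not all follow. The ventricular marker hey2 peaked in replicate 3 at 72 hpf (74 counts), and the canal marker tbx2a in replicate 1 of that stage (675 counts). The ventricular sum includes myh7, whose reporter the paper also saw at a low level in the atrium. The part of leukocytes, ventricular cells and canal cells in the mob1a levels was not tested. The gene shares 44 bases with mthfd2 on the opposite strand, and whether strand was used in counting is not given in the sources used here.

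The second Mob1 gene on chromosome 5, mob1ba (ENSDARG00000009169, from 42951852 to 42962707, plus strand), was the most even of the 9. Its levels were 188, 160 and 171 CPM at 48 hpf and 192, 161 and 206 CPM at 72 hpf, and the highest library was 1.29-fold above the lowest. The stages overlapped, and the log2 fold change of 0.11 (standard error 0.15) had a 95% interval from -0.24 to 0.45 in edgeR (adjusted p = 0.916). A change of more than 0.45 on the log2 scale in either direction therefore lies outside the interval.

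The remaining adaptor gene, mob1bb (ENSDARG00000012953, chromosome 21 from 5960443 to 5972819, plus strand), was uneven at both stages. It had 45.0, 61.6 and 103 CPM at 48 hpf and 77.8, 30.9 and 16.8 CPM at 72 hpf. Replicate 3 was thus the highest library at 48 hpf and the lowest at 72 hpf, and replicate 1 at 72 hpf lay within the 48 hpf range. The 95% counting intervals of those 2 replicate 3 libraries were 93.2 to 114 CPM and 12.8 to 21.7 CPM, so counting error of reads is small beside the spread. Such intervals do not cover variation from the low number of sorted cells. The log2 fold change of -0.74 had a standard error of 0.59 and an interval from -2.11 to 0.63 (edgeR, adjusted p = 0.779). It was -1.54 without replicate 1 at 72 hpf, and 0.02 when only replicates 1 and 2 of each stage were used.

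Summed over the 3 Mob1 genes, the level was 352, 343 and 432 CPM at 48 hpf and 364, 291 and 302 CPM at 72 hpf. The share of each paralog in the raw counts of its own family does not depend on how libraries are scaled, although it mixes genes of different length. The share of mob1ba was 53.4%, 46.5% and 39.5% at 48 hpf and 52.6%, 55.2% and 68.1% at 72 hpf. Its mean was 12.1 percentage points higher at 72 hpf (two-sided exact permutation p = 0.2). The share of mob1bb ran the other way in replicate 3, at 23.9% (exact 95% interval 21.8 to 26.1) at 48 hpf and 5.58% (4.28 to 7.12) at 72 hpf. At 48 hpf the mean share of mob1a was 35.3% ± 1.38 (SD, n = 3), against 28.8% ± 4.64 (SD, n = 3) at the later stage (exact permutation p = 0.2). Across the 6 shares compared in the families below, the exact p-values were 0.2 to 0.6, all 0.6 after Benjamini-Hochberg adjustment, where 3 libraries against 3 allow no p under 0.1.

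**Figure D2:**
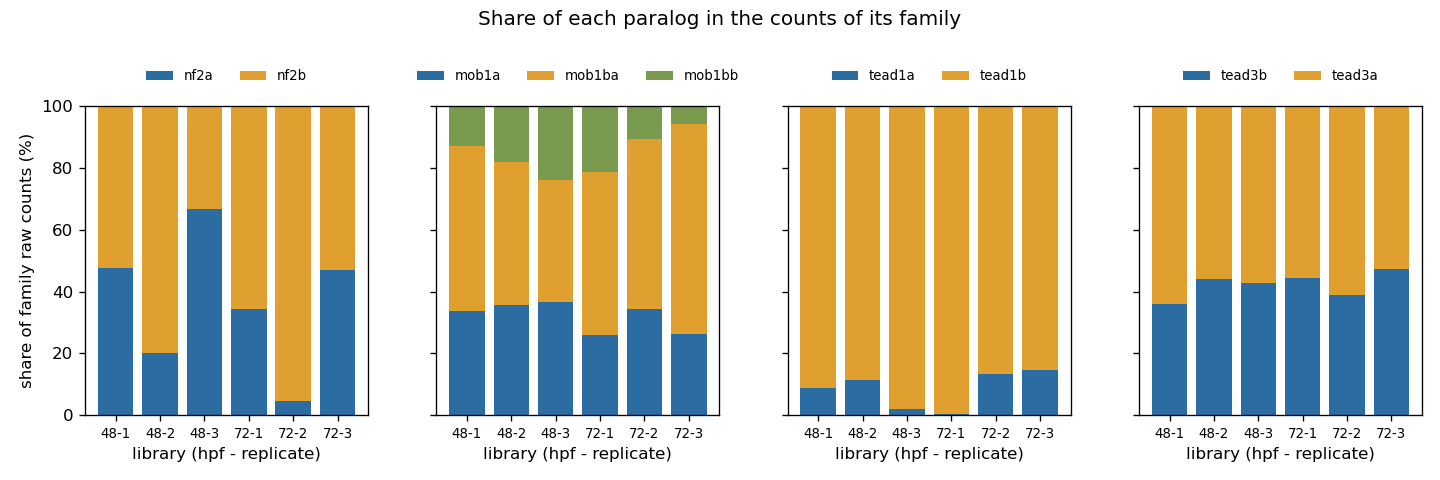
Share of each paralog in the summed raw counts of its family (vertical axis, percent) for the nf2, mob1, tead1 and tead3 genes in each library (horizontal axis, hpf and replicate). The nf2a share ranges from 4.59% to 66.7% between libraries, while the tead3b share stays between 36.0% and 47.2%.

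The kinase gene stk3 (ENSDARG00000011312, chromosome 19 from 32807236 to 32820107, plus strand) had 59.9, 82.0 and 66.9 CPM at 48 hpf and 82.5, 31.4 and 86.2 CPM at 72 hpf. At 72 hpf replicate 2 was the lowest of all 6 libraries and the other 2 were the highest. The stage means were 69.6 ± 11.3 and 66.7 ± 30.6 CPM (SD, n = 3 each). The log2 fold change was -0.06 with an interval from -0.98 to 0.86 (edgeR, adjusted p = 0.990), and it was 0.28 without replicate 2 at 72 hpf. Replicate 2 is the 72 hpf library with the most leukocyte and erythrocyte marker RNA (118 and 90.3 CPM). At 48 hpf the leukocyte sum was higher in every library (359 to 789 CPM), where stk3 was at 59.9 to 82.0 CPM. The erythrocyte sum in replicate 3 at 48 hpf was 259 CPM, with stk3 at 66.9 CPM. The relation of these cells to the stk3 levels was not tested. The gene of the partner of Stk3 in the cascade, the scaffold gene sav1, had 83.7 to 115 CPM at 48 hpf and 98.6 to 124 CPM at 72 hpf.

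Both Merlin genes varied widely between replicates of the same stage. For nf2b (ENSDARG00000025567, chromosome 21 from 25801345 to 25819707, plus strand) the raw counts were 145, 380 and 20 at 48 hpf and 212, 353 and 37 at 72 hpf. In TMM-scaled units these were 30.9, 67.9 and 5.49 CPM at 48 hpf and 45.8, 79.1 and 10.4 CPM at 72 hpf. The order of the replicates was the same at both stages, with replicate 2 the highest and replicate 3 the lowest. The mean of replicates 1 and 2 was 9.01-fold above replicate 3 at 48 hpf and 6.02-fold above it at 72 hpf. The 95% counting intervals of the replicate 3 libraries were 3.35 to 8.47 CPM and 7.31 to 14.3 CPM, both below the lowest of the other libraries at 30.9 CPM (26.1 to 36.4).

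Because replicate 3 is also the replicate sorted on the BigFoot alone, the sorter was read as a term beside the stage in edgeR, a test chosen after the nf2b counts were seen. For nf2b the term was -2.86 on the log2 scale (standard error 0.56, 95% interval from -4.23 to -1.49, unadjusted p = 0.00221), and the adjusted p was 0.648. It was called for 0 of 16100 genes (0%), 7.29% of which had an unadjusted p under 0.05 against 1 of the 9 genes here. Both replicate 3 libraries were below the other 4 in 2 of the 9 genes, nf2b and tead1b, and in 9.01% of all genes tested. The sorter, the replicate and the lower library total cannot be told apart. The sum of the 8 endothelial markers followed the same order of replicates as nf2b. It was 233, 380 and 133 CPM at 48 hpf and 106, 330 and 86.7 CPM at 72 hpf, although 5 of the 8 had no more than 3 counts in any 72 hpf library. Among them the raw counts of kdrl were 573, 1361 and 197 at the first stage and 198, 1044 and 73 at the later one. At 48 hpf kdrl alone of the 8 kept this order in raw counts. At that stage cdh5 had 47, 182 and 50 counts, nfatc1 had 222, 199 and 37, and tie1 had 49, 1 and 4. Endothelial genes were not alone in this. The sum of the 7 neuronal markers was also lowest in replicate 3 of each stage (77.1 and 61.2 CPM). It was highest in replicate 1 at 72 hpf (139 CPM), unlike nf2b. The epicardial marker wt1b kept the nf2b order in raw counts at both stages. The sum of its list did not, with its peak in replicate 3 at 72 hpf (1710 CPM). The part of endothelial, neuronal or epicardial cells in the nf2b levels was not tested. With the stages compared, nf2b had a log2 fold change of 0.37 and an interval from -1.83 to 2.58 (edgeR, adjusted p = 0.965). The estimate was -0.13 without replicate 3 at 48 hpf, and 1.31 was the highest value with 1 library left out. The gene overlaps mettl27 by 612 bases on the opposite strand, and mettl27 itself had 5 to 134 counts.

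Its paralog nf2a (ENSDARG00000020204, chromosome 5 from 11724428 to 11809710, minus strand) had 28.1, 17.2 and 11.0 CPM at 48 hpf and 23.8, 3.81 and 9.26 CPM at 72 hpf. Here replicate 1 was the highest library at both stages, and the lowest was replicate 2 at 72 hpf, with 17 counts (2.22 to 6.10 CPM from counting error). The stages overlapped, with a log2 fold change of -0.61, a standard error of 0.85 and an interval from -2.60 to 1.38 (edgeR, adjusted p = 0.916). The estimate was -1.52 without replicate 1 at 72 hpf, -0.18 without replicate 2 at 72 hpf and -0.20 without replicate 1 at 48 hpf. The share of nf2a in the 2 Merlin genes was 47.7%, 20.2% and 66.7% at 48 hpf and 34.2%, 4.59% and 47.1% at 72 hpf. It was highest in replicate 3 and lowest in replicate 2 at both stages, the reverse of the order of nf2b, whose counts also enter the share. The mean share was 16.2 percentage points lower at 72 hpf (two-sided exact permutation p = 0.4), within the spread between libraries of a stage (SD 23.4 and 21.8 points). That difference was -28.5 points without replicate 2 at 48 hpf, -5.28 without replicate 3 at 48 hpf and -4.18 without replicate 2 at 72 hpf. The 2 genes together had 59.0, 85.1 and 16.5 CPM at 48 hpf and 69.6, 82.9 and 19.6 CPM at 72 hpf.

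**Figure D3:**
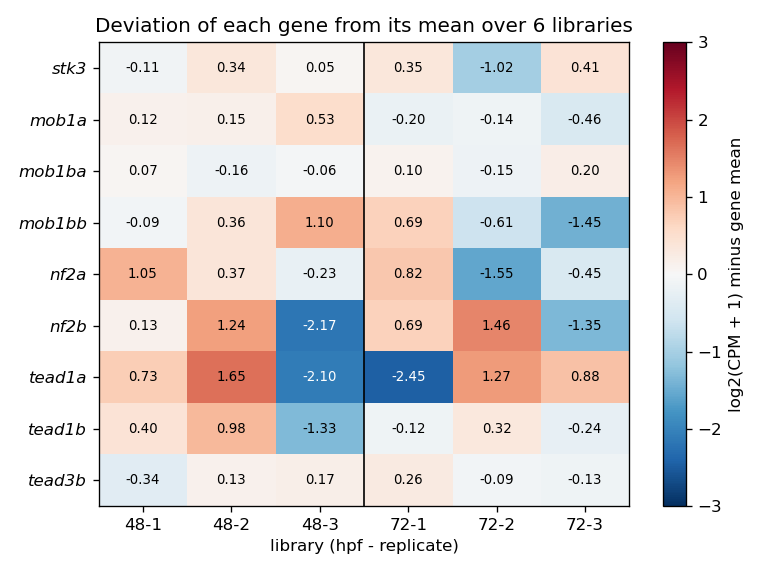
Deviation of each gene from its own mean over the 6 libraries on the log2(CPM + 1) scale, with the genes as rows and the libraries (hpf and replicate) as columns. The nf2b row is low in both replicate 3 columns, and the tead1a row is low in replicate 3 at 48 hpf and replicate 1 at 72 hpf (-2.45).

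Of the Tead genes, tead3b (ENSDARG00000063649, chromosome 6 from 54576520 to 54671696, plus strand) was even across libraries. It had 42.4, 59.1 and 60.6 CPM at 48 hpf and 64.6, 50.7 and 49.1 CPM at 72 hpf, with overlapping stages and means of 54.1 ± 10.1 and 54.8 ± 8.54 CPM (SD, n = 3 each). The log2 fold change was 0.02 with an interval from -0.63 to 0.67 (edgeR, adjusted p = 0.995). With its paralog tead3a it made up a family in which the tead3b share was 36.0%, 44.1% and 42.7% at 48 hpf and 44.3%, 39.0% and 47.2% at 72 hpf (exact permutation p = 0.5).

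The gene tead1b (ENSDARG00000059483, chromosome 7 from 65813301 to 65924821, plus strand) had 103, 155 and 30.4 CPM at 48 hpf and 71.5, 97.3 and 66.0 CPM at 72 hpf. The 72 hpf libraries lay within the 48 hpf range, which is set by the high replicate 2 and the low replicate 3. The sorter term was -1.13 (standard error 0.47, unadjusted p = 0.0519, adjusted p = 0.665 in edgeR). The stage difference was -0.30 with an interval from -1.51 to 0.92 (edgeR, adjusted p = 0.936), and it was 0.23 without replicate 2 at 48 hpf.

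The gene tead1a (ENSDARG00000028159, chromosome 25 from 16356083 to 16431599, plus strand) had the fewest counts of the 9, at 47, 111 and 2 in the 48 hpf libraries and 1, 67 and 40 in the 72 hpf libraries. Those of 2 and 1 are at or under the floor of 3 counts, at 0.549 CPM (counting interval 0.0664 to 1.98) and 0.216 CPM (0.00547 to 1.20). The other 4 libraries had 40 to 111 counts, with counting intervals no lower than 7.36 CPM. The near-empty libraries are thus 1 of each stage, and have different replicate numbers and sorts. The 8 epicardial and fibroblast markers summed to 508 CPM in replicate 3 at 48 hpf and to 312 CPM in replicate 1 at 72 hpf. In the other 4 libraries their sum was 1170 to 1710 CPM. Single markers of that list did not all follow this split. In replicate 3 at 72 hpf tcf21, wt1a, wt1b and tbx18 had 63, 82, 20 and 352 counts. Each was below its count in replicate 3 at 48 hpf (166, 154, 48 and 369). The collagen genes col1a1a and col1a2 had 1793 and 2378 counts in replicate 3 at 72 hpf, against 220 and 239 in replicate 3 at 48 hpf. The relation of such cells to the tead1a levels was not tested. The log2 fold change was -0.20 with an interval from -3.88 to 3.47 (edgeR, adjusted p = 0.993), so a stage difference of up to several fold was not detectable in either direction. The tead1a share in the tead1 family was 8.85%, 11.4% and 1.77% at 48 hpf and 0.301%, 13.4% and 14.5% at 72 hpf (exact permutation p = 0.6). Summed over tead1a, tead1b, tead3a and tead3b, the level was 231, 308 and 173 CPM at 48 hpf and 218, 242 and 181 CPM at 72 hpf, lowest in replicate 3 of each stage. The genes of the 2 effectors that Tead proteins bind, yap1 and wwtr1, summed to 439 to 447 CPM at 48 hpf and 409 to 450 CPM at 72 hpf. Most of this was yap1, with means of 381 and 385 CPM. Alone, wwtr1 had 77, 60 and 52.1 CPM at 48 hpf and 45.6, 55.6 and 29.7 CPM at 72 hpf. Its log2 fold change was -0.53 with an interval from -1.3 to 0.24 (edgeR, adjusted p = 0.679).

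**Figure D4:**
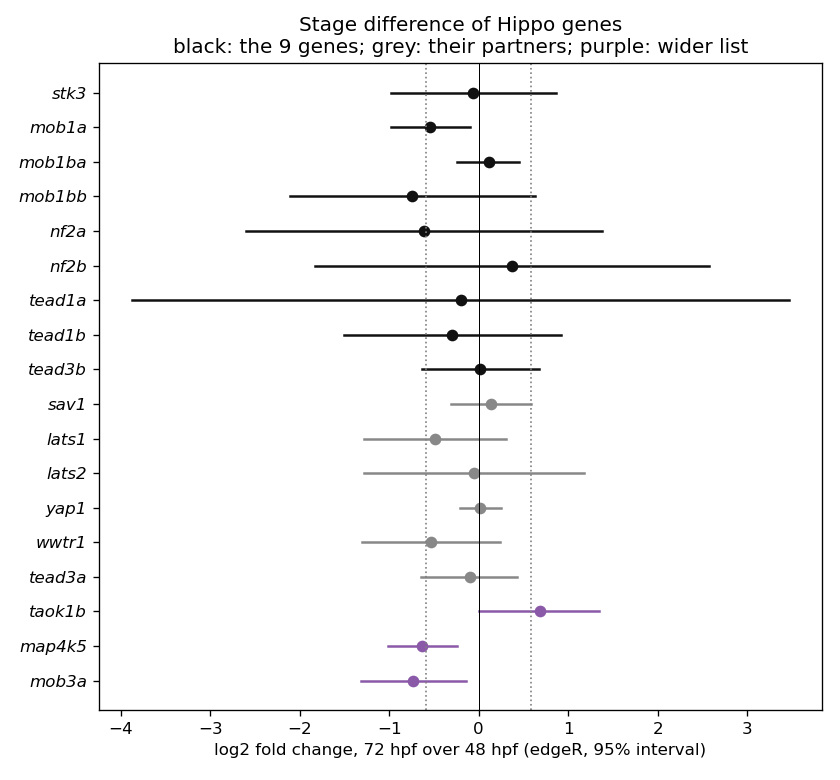
Log2 fold change between 72 and 48 hpf with its 95% interval from edgeR for the 9 genes (black), 6 partner genes (grey) and 3 genes of the wider Hippo list (purple), with dotted lines at the fold change threshold in either direction. The interval of mob1a (-0.98 to -0.10) does not reach 0, while that of tead1a spans -3.88 to 3.47. Intervals are not adjusted for the number of genes tested. The purple genes were picked by an unadjusted p under 0.05 in this same fit, and dchs1b, which also met that rule, is not drawn.

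The 9 genes differed widely among themselves in their spread between replicates. The SD within a stage on the log2(CPM + 1) scale was 0.15 for mob1ba, 0.20 for mob1a, 0.25 for tead3b and 0.59 for stk3, at or below the median of 0.62 over all genes tested. It was 0.87 for both mob1bb and tead1b, 0.95 for nf2a, 1.60 for nf2b and 2.00 for tead1a. Of all genes tested, 12.7% had a larger SD than nf2b and 4.42% a larger one than tead1a. The raw counts were 175 to 331 for tead3b and 111 to 865 for tead1b, and the relation of spread to depth was not tested. In edgeR's moderated estimate the biological coefficient of variation was 17.4% for mob1ba, 79.8% for nf2b and 128% for tead1a, with a median of 57.9% over all genes tested. The effector gene yap1, with 1350 to 2120 counts, was at 13.9% in the same moderated estimate. The plain coefficient of variation of CPM between replicates, a different measure, was 2.97% at 48 hpf and 2.21% at 72 hpf for yap1. For mob1ba this plain value was 8.17% at 48 hpf and 12.4% at 72 hpf. Removal of duplicate reads can limit counts of abundant genes, and its part in this evenness was not tested.

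**Figure D5:**
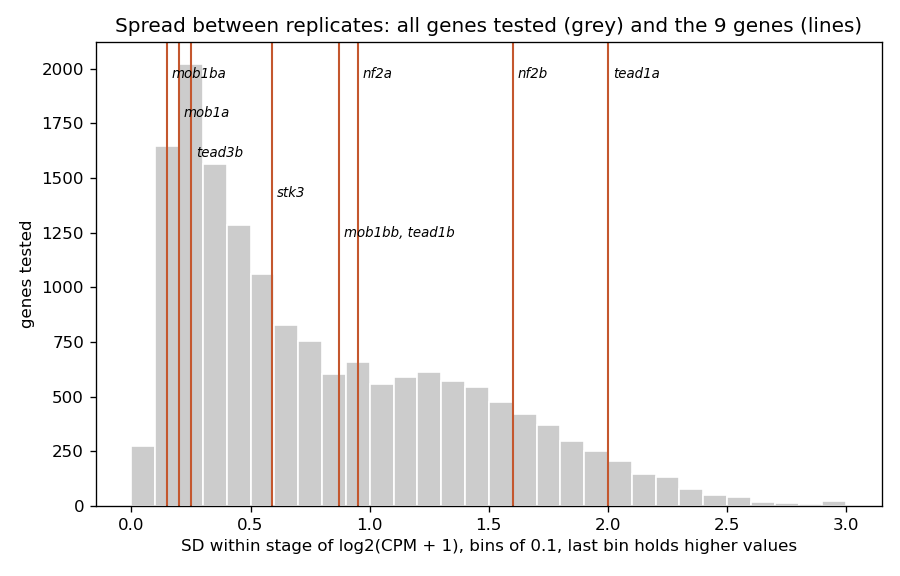
Number of genes tested (vertical axis) by their SD within a stage on the log2(CPM + 1) scale (horizontal axis, bins of 0.1), with a line for each of the 9 genes. Lines for mob1ba, mob1a, tead3b and stk3 lie between 0.15 and 0.59, and those of nf2b and tead1a lie at 1.60 and 2.00.

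To place the 9 genes in their pathway, 58 other Hippo genes were listed by role, of which 50 were found in the table by symbol and 48 were tested. Of these 48, edgeR called 0, and at 72 hpf the estimate was lower for 32 (66.7%) and higher for 16, the median being -0.14 on the log2 scale. Over all genes tested the estimate was lower for 51.5% and the median was -0.02. At an unadjusted p-value under 0.05, 3 were lower and 1 was higher, where 8.74% of all genes tested were at that level. The stages did not overlap in 6 of the 48 (12.5%), against 16.6% of all genes tested. The genes lower at that level were map4k5, dchs1b and mob3a. The kinase gene map4k5, which encodes a kinase of the family that can activate Lats in mammals, had 186, 222 and 247 CPM at 48 hpf and 153, 150 and 121 CPM at 72 hpf. Its log2 fold change was -0.63 (standard error 0.17), with an adjusted p of 0.400 in edgeR and of 0.0113 in DESeq2. This was the only call of either tool among the 57 tested genes of the whole list. DESeq2 called 4.25% of all genes to which it gave an adjusted p. The protocadherin gene dchs1b, whose product is a ligand of Fat cadherins, had raw counts of 3, 63 and 13 at 48 hpf and of 1, 0 and 0 at 72 hpf. A relative of the Mob1 adaptors, mob3a, had 62.7, 96.3 and 93.8 CPM at 48 hpf and 45.6, 54.7 and 52.5 CPM at 72 hpf (log2 fold change -0.73, edgeR adjusted p = 0.495). The gene higher at that level was taok1b, a Tao kinase gene, with 41.8, 36.6 and 44.2 CPM at 48 hpf and 57.7, 83.8 and 54.2 CPM at 72 hpf (log2 fold change 0.68, edgeR adjusted p = 0.564).

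The lists by role below also include the 9 genes themselves, so together they cover the 57 tested genes of the whole list. None of these lists held an edgeR call. The counts below stand beside the 51.5% of all genes tested that had a lower estimate. In the kinase cassette 7 genes were tested, 2 with a higher and 5 with a lower estimate and a median of -0.06. The effectors and Tead partners held 10 tested genes, 3 with a higher and 7 with a lower estimate and a median of -0.25. The Nf2 module with its upstream kinases held 14, of which 5 had a higher and 9 a lower estimate, with a median of -0.16. Of 10 junction and polarity genes tested 8 had a lower estimate (median -0.18), and of 16 STRIPAK and Mob relatives 9 did (median -0.12).

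The profile of each gene over the 6 libraries was also compared with those of the other listed Hippo genes with a mean above 50 normalized counts, by the root mean square difference of centred log2(CPM + 1) values. The profile nearest to mob1a was that of map4k5, at 0.09 against a median of 0.50 over 47 candidates. For mob1ba it was stk25b (0.13), for tead3b ajuba (0.17) and then yap1 (0.19), and for mob1bb it was stk38a (0.37). The nearest to tead1b was taok2a at 0.43. The closest to the Merlin gene nf2b were strn at 0.80 and tead1b at 0.82, against a median of 1.33. The closest to tead1a was lats2 at 1.14, against a median of 1.63. No scaling by the spread of each gene was applied, so even genes lie near each other and uneven genes lie far from most. These distances describe 6 libraries that share sorts and depth, and carry no test.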

How the data were processed

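The authors trimmed single-end reads (Trimmomatic 0.39), aligned them to danRer11 (STAR 2.7.10a), removed duplicates (Picard 3.0.0) and multi-mapping, ribosomal and mitochondrial reads, and deposited raw counts per gene over exons (featureCounts 2.0.4), without reads shared by several genes. Reads common to near-identical paralogs were thus lost. Versions come from the submitters' processing notes and methods.

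The stage of each library came from its label. In R 4.3.3, edgeR 4.0.16 tested the counts (TMM, robust quasi-likelihood test, mean normalized count above 5) over all genes. Calls needed a Benjamini-Hochberg adjusted p below 0.05 and a log2 fold change beyond 0.585. Standard errors are the absolute fold change over the square root of F, and 95% intervals use them. Fits were tested on simulated data. Alternatives were DESeq2 1.42.0, limma 3.58.1 voom, other scalings and filters, a replicate block, the sorter, and left-out libraries. Same-numbered libraries were not treated as pairs.

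The 9 genes and all lists were chosen with earlier results of these data known. Named are the 9 genes, their partners, and listed Hippo genes with an unadjusted p under 0.05 or a DESeq2 call. Levels in text are TMM-scaled CPM, and marker sums are per library total. Columns without a sample numbered 0. No sequence or exon length was used here.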

Additional observations from a re-analysis of the deposited data

How the results depend on the processing

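The count of called members was 0 under every alternative run, and mob1a, mob1ba and nf2a kept the direction of their estimate under all 15. Over all genes, 1 was called in the reported fit, 636 by DESeq2, 11 without a filter, and 0 with voom, with the replicate block, with the sorter as a covariate and with replicates 1 and 2 only; leaving out 1 library gave 0 to 1, with 1 only without replicate 1 at 48 hpf. In the Hippo list DESeq2 called 1 and edgeR 0. Estimates changed direction for mob1bb with replicates 1 and 2 only (0.02) and for tead1a with the sorter as a covariate (0.34). With 1 library left out, the estimates ranged from -0.30 to 1.31 for nf2b, -0.29 to 0.28 for stk3, -0.83 to 0.73 for tead1a, -0.72 to 0.23 for tead1b, -0.13 to 0.11 for tead3b, -1.52 to -0.18 for nf2a and -1.54 to -0.35 for mob1bb, and the causes were not tested. With replicates 1 and 2 only, the difference in share was 0.618 points for mob1bb and -3.27 for tead1a, and leaving out 1 library gave -0.705 to 6.63 points for tead1a and -28.5 to -4.18 for nf2a. Deviations of same-numbered libraries from their stage means correlated at 0.00, 0.11 and 0.00, and those of the other combinations at -0.06 to 0.05. With 3 libraries per stage these values cannot decide whether the numbers pair them, and the reported fit used no pairing. Precision was limited for tead1a, which had 3 counts or fewer in 2 libraries, 1 of them the deepest at 72 hpf.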
